A study of Mus musculus with 12 samples.

Results

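Transcripts of 10 circadian clock genes were followed in single-myofiber RNA sequencing libraries of mouse muscle. The genes were taken by name from the gene-level tables: Arntl and Clock, Per1, Per2, Per3 and Cry2, Nr1d1 and Nr1d2, and Dbp and Tef. All 10 names were found, each as 1 row among the 56162 features listed. All 10 also passed the filter on low counts that left 11747 genes for testing. The 12 libraries came from male C57BL/6J mice with a labelled age of 8 weeks and fall into 4 groups of 3: type I fibres of soleus and type IIb fibres of extensor digitorum longus, each from untrained mice and from mice trained on a treadmill. Training lasted 6 weeks, with 5 runs a week of 60 min at 12 to 16 m/min, and ended 3 days before death. Soleus was digested in collagenase for 90 min and extensor digitorum longus for 60 min, so fibre type, muscle and digestion time cannot be told apart. Each fibre was cut: a piece served to identify its myosin heavy chain protein, and the rest was sequenced. Mice were kept under a daily cycle of light and dark. The hour at which mice ran and were killed is not stated in the labels.

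The mammalian clock is a loop of transcription and feedback that runs in most cells, muscle fibres included, with a period of about a day. CLOCK and BMAL1, the product of Arntl, bind E-box sequences and switch on the Per and Cry genes, the Nr1d genes and Dbp, while the PER and CRY proteins come back to block them. NR1D1 and NR1D2 (REV-ERB alpha and beta) repress Arntl through RORE elements, and DBP and TEF activate genes that carry a D-box, Per3 among them. In muscle the clock is known for setting daily rhythms of fuel use, and levels of these transcripts depend on the hour at which tissue is taken.

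Nr1d2 and Tef were the clock transcripts that every fibre library held, and together they made up most of the clock signal in deposited FPKM. The other 8 genes were each without a single count in 1 to 6 of the 12 libraries. In trained type I fibres Dbp had no count in any library, and Per1, Per2 and Per3 lay below every untrained type I library on TMM-scaled counts. This made 4 of 10 genes lower without overlap, where 8.93% of all genes tested were. On deposited FPKM the Per2 groups overlapped, which left 3 of 10. These differences did not pass the test: 0 of the 10 genes were called in any of the 7 comparisons, a call being an adjusted p below 0.05 (Benjamini-Hochberg, over all genes) from the quasi-likelihood fit of edgeR. No label says that the libraries of a group came from different mice. The p-values therefore describe the scatter among these libraries, part of which may be technical.

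Libraries held 8026397 to 24995288 counts and 3636 to 14428 genes with at least 10 counts. Marker genes matched the labelled fibre types. A list of 8 slow fibre genes summed to 46300 to 84400 CPM (counts scaled to the library total) in type I and to 1.16 to 47.5 CPM in type IIb libraries. A list of 10 fast fibre genes summed to 141000 to 239000 CPM in type IIb and 998 to 7590 CPM in type I libraries. Endothelial markers, a list of 14 genes, came to 655 to 2750 CPM in type I libraries. They came to at most 15.5 CPM in untrained type IIb libraries and at most 411 CPM in trained ones. In untrained type IIb libraries only 1 of the 14, Cd36, had any count. The part of the fibres themselves in these sums was not tested. Fibroblast markers, 9 genes, reached 9490 CPM in untrained type I library 3 and 305 CPM or less in the libraries of the other groups. Adipocyte markers were at or near 0 throughout, with a highest sum of 2.06 CPM. Clock genes are active in capillary cells and fibroblasts too, and the part of those cells in the values below was not tested. Fewer cells of a type and less RNA per cell cannot be told apart in such libraries.

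How many clock genes a library showed went with how many genes it showed at all. Of the 10, the untrained type I libraries had 10, 9 and 10 with at least 10 counts, and the trained type I libraries 6, 5 and 9. The untrained type IIb libraries had 3, 10 and 8, and the trained ones 3, 7 and 10. In type IIb fibres, untrained or trained, libraries of 1 group therefore ran from 3 to all 10 of the clock genes. Over the 12 libraries this number correlated with log10 of the genes having at least 10 counts (Pearson r = 0.913, permutation p = 6e-05; Spearman rho = 0.829, permutation p = 0.00157). With the 2 libraries most distant from the median gene number left out, r was 0.881. Computed separately by fibre type, it was 0.942 (type I) and 0.954 (type IIb). The clock genes are themselves among the genes counted, and no other gene list was compared. The p-values therefore show nothing particular to clock genes. Counts of exactly 0 made up 21 of the 120 values: none of 30 in untrained type I, 7 in trained type I, 6 in untrained type IIb and 8 in trained type IIb libraries.

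**Figure D1:**
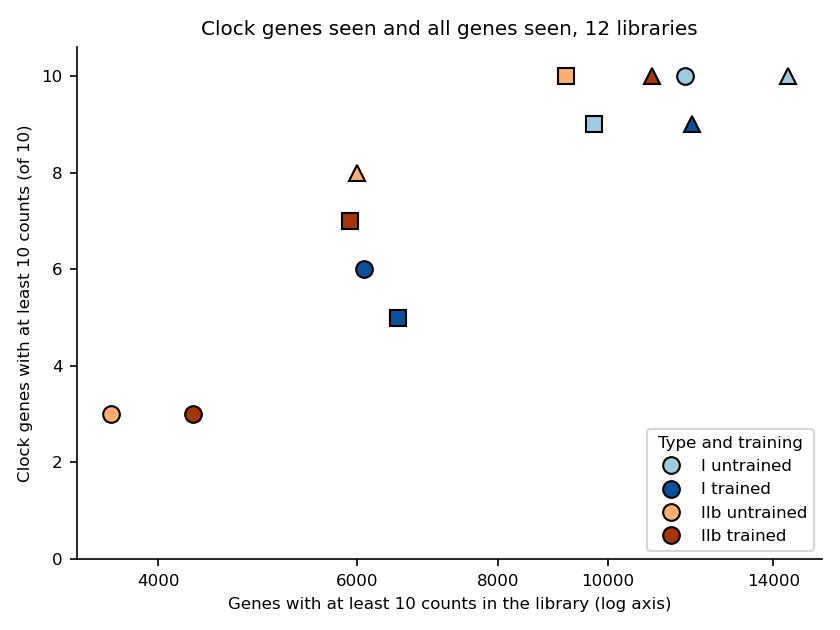
Clock genes with at least 10 counts in each library (vertical axis, of 10) against all genes with at least 10 counts (horizontal log axis). Points are the 12 libraries, coloured by fibre type and training, and circles, squares and triangles are libraries 1, 2 and 3 of a group. The libraries with 3636 and 4291 genes show 3 clock genes each, and all 6 libraries with 9170 genes or more show 9 or 10.

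In order of mean level per gene length (FPKM, mean ± SD over the 12 libraries), the genes were Nr1d2 at 92.1 ± 45.9, Tef at 71.0 ± 39.2 and Per3 at 18.6 ± 22.1. They were followed by Nr1d1 at 6.87 ± 4.86, Cry2 at 5.63 ± 7.09, Clock at 5.09 ± 8.37 and Arntl at 4.30 ± 5.62. The lowest were Per1 at 2.42 ± 3.18, Dbp at 2.20 ± 2.77 and Per2 at 1.91 ± 3.35. Nr1d2 and Tef did not differ beyond their spread, nor did neighbours from Per3 down to Per2. The step from Tef to Per3 exceeded both SDs, but it depends on the lengths used. Tef had 15205 counts in all at a table length of 1418 bases, and Per3 had 14224 at 4192 bases. The joined exons of these genes in GENCODE M21 cover 7867 bases for Tef and 9608 for Per3. The share that follows depends on the table lengths too. Nr1d2 and Tef together carried 59.4% to 99.0% of the summed FPKM of the 10 genes in a library. That sum ran from 80.8 to 319 FPKM.

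Within each pair of related genes, one copy led in nearly every fibre library. Nr1d2 was above Nr1d1 in 12 of 12 libraries, by a median of 12 times (range 5.7 to 54.9) in the 11 libraries that held both. Tef was above Dbp in 12 of 12, by a median of 16.1 times (5.69 to 42) in the 6 that held both. Per3 was above Per1 in 10 of 12 and above Per2 in 10 of 12, with median ratios of 3.96 and 10.2 where both were present. These ratios are of FPKM, which divides by the table length of a gene. On that scale REV-ERB beta transcripts, TEF transcripts and Per3 led their families in these fibres. The activators had no such leader: Clock was above Arntl in 7 of 12 libraries.

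**Figure D2:**
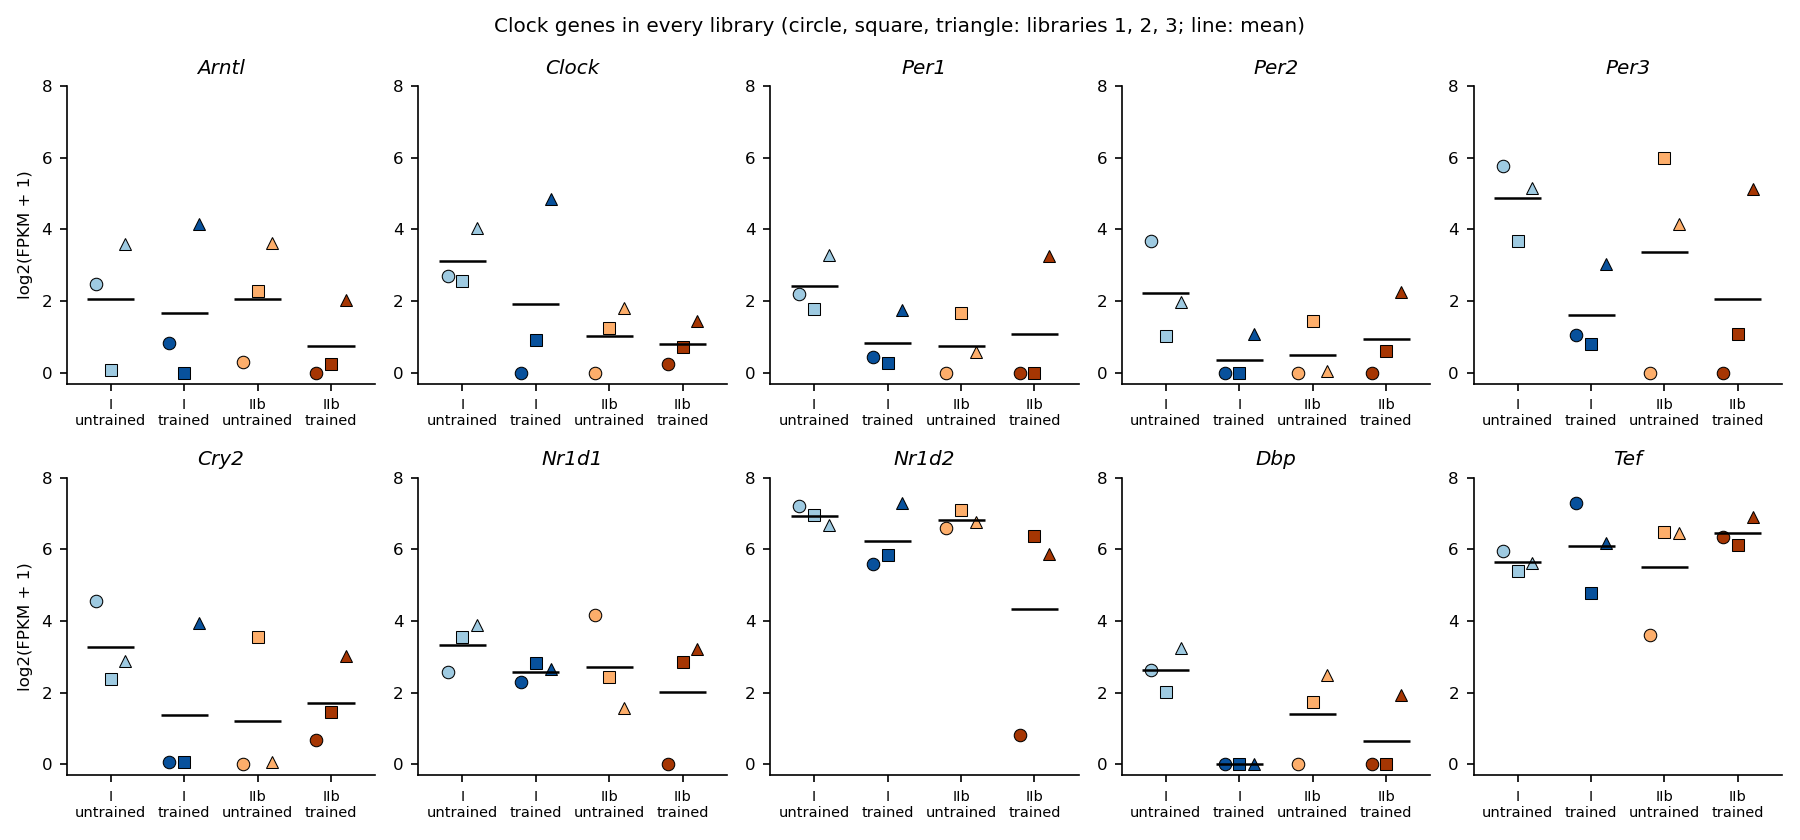
Level of each of the 10 clock genes in every library, as log2(FPKM + 1) on the vertical axis, by fibre type and training. Circles, squares and triangles are libraries 1, 2 and 3 of a group and lines are group means of 3; Nr1d2 and Tef have counts in all 12 libraries, and Dbp is at 0 in the 3 trained type I libraries.

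The spread between libraries of 1 group was large for most of the genes. The biological coefficient of variation, edgeR's estimate of the replicate spread as a share of the level, was 0.910 for Tef and 0.927 for Nr1d2. Only 7.93% and 8.37% of the tested genes had lower values. It was 1.49 for Per3, 1.51 for Nr1d1 and 1.67 for Clock, below the median of all genes (1.75). Cry2 (1.84), Arntl (1.87), Per1 (1.92), Dbp (1.97) and Per2 (2.08) lay above it. The 2 least variable of the genes were thus also those with the highest levels.

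Arntl encodes BMAL1, the partner without which the loop does not run, and lies on mm10 chromosome 7 (113207465 to 113314126). Its levels, as CPM scaled by TMM from here on, were 8.34, 0.144 and 19.3 in untrained and 2.49, 0 and 27.0 in trained type I libraries. They were 0.651, 11.7 and 32.8 in untrained and 0, 0.728 and 8.88 in trained type IIb libraries. Every group held both a library near 0 and one above 8 CPM, and the groups overlapped. With training the fitted log2 fold change was 0.09 ± 2.47 (SE) for type I and -2.22 ± 2.58 for type IIb fibres.

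Clock (chromosome 5, 76209868 to 76304792) encodes the DNA-binding partner of BMAL1. Untrained type I libraries had 19.0, 22.7 and 50.6 CPM and untrained type IIb libraries 0, 7.81 and 13.6 CPM. Each untrained type I library was above each untrained type IIb library. In trained mice the levels were 0, 5.07 and 84.4 CPM in type I and 1.16, 4.74 and 9.38 CPM in type IIb libraries, so the groups overlapped. Clock was the 1 gene of the 10 whose untrained groups did not overlap, all higher in type I, where 22.8% of all genes tested showed the same. Its log2 fold change, type I minus type IIb, was 2.10 ± 2.30 (adjusted p = 0.872) in untrained and 2.55 ± 2.34 (adjusted p = 0.925) in trained mice.

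Per1 (chromosome 11, 69095217 to 69109960), Per2 (chromosome 1, 91415982 to 91459324) and Per3 (chromosome 4, 151003652 to 151044665) encode the period proteins of the repressor limb. Per1 had 8.76, 7.97 and 20.2 CPM in untrained and 1.49, 0.825 and 5.08 CPM in trained type I libraries. Per2 had 25.2, 3.02 and 5.84 CPM against 0, 0 and 2.09 CPM. Per3 had 156, 47.0 and 96.8 CPM against 5.35, 3.65 and 18.7 CPM. For all 3 genes the highest trained library was below the lowest untrained one, with the narrowest gap in Per2. Pooled over libraries, the levels in trained fibres were 4.38, 8.29 and 7.98 times lower for Per1, Per2 and Per3. Trained library 3 held most of the trained counts and all 47 of Per2. Without it the levels were 13.0 times lower for Per1 and 22.6 times lower for Per3. For Per2 they were at least 55.0-fold lower (against a floor of 3 counts over the group, counting error only). Without untrained library 3 the values were 2.46 for Per1 and 12.5 for Per2, and without untrained library 1 that of Per2 was 4.21. The fitted log2 fold changes were -2.31 ± 2.62, -3.98 ± 2.93 and -3.43 ± 2.03, each with an adjusted p of 1. For Per3 the 95% interval ran from -7.68 to 0.82, and its fitted value was -1.99 without the 3 libraries with the most endothelial marker counts. Trained type I libraries 1 and 2 had 6082 and 6517 genes, fewer than any untrained type I library (9711 to 14428), and library 3 had 11852. The part of this difference in the values of the period genes was not tested.

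Type IIb fibres did not show this order. There Per1 had 0, 8.86 and 1.94 CPM in untrained and 0, 0 and 33.1 CPM in trained libraries. Per2 had 0, 6.12 and 0.0922 CPM against 0, 2.37 and 12.5 CPM, and Per3 had 0, 303 and 78.6 CPM against 0, 6.92 and 157 CPM. Each group held a library at 0, and untrained library 2 and trained library 3, the libraries with the most genes of their groups, were high for all 3 genes. The difference between the training effects in type I and type IIb fibres was -3.93 ± 3.66 for Per1, -5.24 ± 3.91 for Per2 and -2.21 ± 2.64 for Per3 (log2), with adjusted p-values of 0.981, 0.881 and 1.

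The DNA before the starts of Per3 and Per1 is shown because Per3 is a textbook D-box gene and Per1 a textbook E-box gene, and both lay lower in trained type I fibres without overlap. Windows are the bases before the start given by RefSeq (GRCm38.p6, the assembly of mm10), without bases that the annotation places in an exon. Capitals mark matches to 4 motifs searched on both strands: the E-box CACGTG, its variant CACGTT, the D-box TTATGTAA and the RORE half-site AGGTCA, which reads TGACCT on the other strand. The matches shown do not overlap each other.
Per3, chr4:151044666-151044915, minus strand: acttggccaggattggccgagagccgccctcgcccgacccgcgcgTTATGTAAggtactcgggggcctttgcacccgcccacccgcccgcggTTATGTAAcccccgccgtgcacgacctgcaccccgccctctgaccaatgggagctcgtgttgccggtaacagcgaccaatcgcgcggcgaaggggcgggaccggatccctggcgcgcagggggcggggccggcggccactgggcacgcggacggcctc
Per1, first start, chr11:69098699-69098947, plus strand: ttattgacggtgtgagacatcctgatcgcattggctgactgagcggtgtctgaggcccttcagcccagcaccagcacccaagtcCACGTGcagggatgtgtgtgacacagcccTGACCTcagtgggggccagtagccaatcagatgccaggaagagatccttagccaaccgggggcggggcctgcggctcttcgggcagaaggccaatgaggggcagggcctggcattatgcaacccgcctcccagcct
The Per3 window holds the D-box TTATGTAA at 2 places, beginning 205 and 158 bases before the start. This motif is found in 0.819% of the 32851 RefSeq windows, searched over the full 250 bases with exon bases kept. The Per1 window holds an E-box 166 bases before the start, a motif in 6.02% of windows, and an AGGTCA half-site on the other strand 137 bases before it, a motif in 14% of windows. A match is a description of the letters and shows no binding.

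Cry2 (chromosome 2, 92403646 to 92434043) encodes a cryptochrome, the partner of the period proteins in repression. Its levels were 33.6, 8.40 and 9.10 CPM in untrained and 0.124, 0.118 and 19.2 CPM in trained type I libraries. In type IIb they were 0, 26.4 and 0.0922 CPM in untrained and 1.55, 5.46 and 16.7 CPM in trained libraries. Trained type I library 3 lay within the untrained range, so the type I groups overlapped. With training the log2 fold change was -1.39 ± 2.49 for type I and -0.16 ± 2.44 for type IIb fibres.

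Nr1d1 (chromosome 11, 98767932 to 98775333) and Nr1d2 (chromosome 14, 18204054 to 18239127) encode the REV-ERB repressors. Nr1d2 had 201, 223 and 130 CPM in untrained and 109, 130 and 188 CPM in trained type I libraries. It had 196, 304 and 230 CPM in untrained and 1.81, 229 and 123 CPM in trained type IIb libraries. Apart from trained type IIb library 1, with 14 counts, all libraries lay between 109 and 304 CPM. The log2 fold change with training was -0.37 ± 0.95 (95% interval -2.36 to 1.61) in type I and -1.04 ± 0.96 (-3.05 to 0.96) in type IIb fibres. Type I minus type IIb came to -0.40 ± 0.95 (-2.39 to 1.59) in untrained and 0.27 ± 0.95 (-1.71 to 2.26) in trained mice. Both signs depended on the processing: the first was 0.13 in limma on log2(FPKM + 1), and the second was -0.28 without trained type IIb library 1. All 4 intervals of Nr1d2 included 0 and reached more than 1 log2 unit to at least one side.

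Nr1d1 levels were 6.06, 17.8 and 16.2 CPM in untrained and 8.21, 12.7 and 5.70 CPM in trained type I libraries, and the groups overlapped. In type IIb they were 31.0, 8.86 and 3.78 CPM in untrained and 0, 15.8 and 16.0 CPM in trained libraries. Nr1d1 was the only one of the 8 lower genes with at least 10 counts in untrained type IIb library 1, the library with the fewest genes. Its exons share 263 bases, 8.55% of their length, with those of Thra, the thyroid hormone receptor gene on the other strand. Reads of the 2 genes over that stretch cannot be told apart in counts without strand. Thra had 0 counts in untrained type IIb library 1, where Nr1d1 had 286.

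Dbp (chromosome 7, 45705088 to 45710203) encodes a D-box activator that is among the textbook direct outputs of the loop. Its counts were 83, 54 and 288 in untrained and 0, 0 and 0 in trained type I libraries. They were 0, 46 and 75 in untrained and 0, 0 and 58 in trained type IIb libraries. Trained type I was the only group without any count of Dbp, and no other of the 10 genes was missing from a whole group. On the TMM scale a count of 0 allowed up to 0.373, 0.353 and 0.134 CPM in its 3 libraries (3 counts each, counting error only), while the untrained levels were 4.98, 3.88 and 7.64 CPM. Taking 3 counts over the group as the floor (counting error only), pooled Dbp in type I fibres was at least 80.9-fold lower with training. This bound leaves out the scatter between libraries. The fitted 95% interval, which includes that scatter, was -16.7 to -1.80 log2 (edgeR) and reached to a much smaller fall. The bound depends on depth and was at least 34.3-fold without trained library 3, the deepest of the trained type I libraries. The edgeR test gave an unadjusted p of 0.0180 and an adjusted p of 1. Exact permutation tests (two-sided, 3 libraries against 3) of Dbp and Per3, run after their values were seen, gave p = 0.1 for each, the smallest such a test allows.

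Trained type I libraries 1, 2 and 3 had 6082, 6517 and 11852 genes with at least 10 counts, and the part of gene number in the Dbp zeros was not tested. Exons of Dbp share 539 bases (18% of their length) with Sphk2, a sphingosine kinase gene, which had 350, 22 and 162 counts in trained type I libraries. In trained mice pooled Dbp of type I fibres was at least 27.8-fold below that of type IIb fibres (floor of 3 counts, counting error only). The fitted 95% interval was -14.1 to -0.46 log2 (edgeR, unadjusted p = 0.0378, adjusted p = 0.614). All 58 type IIb counts came from library 3. Averaged over fibre types, the training test gave an unadjusted p of 0.0213 and an adjusted p of 1.00, and the interaction an unadjusted p of 0.0543 and an adjusted p of 0.576.

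Tef (chromosome 15, 81802421 to 81826863) encodes the other D-box activator of the set. It had 60.9, 54.3 and 45.4 CPM in untrained and 266, 45.1 and 62.0 CPM in trained type I libraries. It had 16.7, 145 and 136 CPM in untrained and 138, 142 and 184 CPM in trained type IIb libraries. Trained type I library 1 was the highest of the 12 and untrained type IIb library 1 the lowest. The other type I libraries had 45.1 to 62.0 CPM and the other type IIb libraries 136 to 184 CPM, but with those 2 libraries included the fibre types overlapped in untrained and in trained mice. The log2 fold change with training was 1.21 ± 0.94 (95% interval -0.75 to 3.18) in type I and 0.64 ± 0.93 (-1.31 to 2.58) in type IIb fibres. A single library decided the type I value, which was 0.00 without trained type I library 1. Type I minus type IIb was -0.89 ± 0.93 in untrained mice and -0.31 ± 0.93 in trained mice; the first became 0.14 in limma on log2(FPKM + 1) and the second 0.09 without trained type I library 2.

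Tef and Nr1d2 are shown next because they were the clock transcripts present in every fibre library.
Tef, second start, chr15:81811164-81811413, plus strand: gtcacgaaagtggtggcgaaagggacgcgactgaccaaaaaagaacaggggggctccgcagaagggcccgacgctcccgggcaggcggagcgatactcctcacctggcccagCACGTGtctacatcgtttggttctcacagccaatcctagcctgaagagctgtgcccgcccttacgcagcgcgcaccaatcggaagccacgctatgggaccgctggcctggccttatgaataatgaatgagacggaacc
Nr1d2, chr14:18239128-18239356, minus strand: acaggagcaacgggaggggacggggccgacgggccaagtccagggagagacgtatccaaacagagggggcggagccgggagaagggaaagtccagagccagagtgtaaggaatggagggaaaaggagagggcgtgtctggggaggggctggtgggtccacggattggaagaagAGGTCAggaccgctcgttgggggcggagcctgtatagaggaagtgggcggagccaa
The Tef window holds an E-box CACGTG 138 bases before the start. The Nr1d2 window holds an AGGTCA half-site 77 bases before it, a motif in 14% of windows, and a full RORE was not searched for. Of the 10 genes, 9 were matched in the promoter table, Per2 being the exception. The windows of Arntl and Dbp held none of the 4 motifs, and neither did the window of the second Per1 start. Clock held the AGGTCA half-site on the other strand, 119 bases before 1 of its starts. Cry2 and Nr1d1 held CACGTT on the other strand, 166 and 28 bases before the start, a motif in 3.85% of windows.

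Read as a group against all genes, the clock genes showed no called change in any comparison. With training in type I fibres, 0 of 10 were called, where 0% of all genes tested were called; at an unadjusted p under 0.05 there was 1 (Dbp), where 2.94% of all genes passed. In the same comparison 4 of the 10 (Per1, Per2, Per3 and Dbp) were lower without overlap, where 8.93% of all genes were, and 0 were higher, where 2.78% of all genes were. The median log2 fold change of the 10 was -0.99, with 8 below 0, against -0.28 over all genes. It moved with single libraries and with the tool: it was -3.50 (all genes -0.77) without trained type I library 3, and -0.68 without untrained or trained type I library 1. It was -3.26 (all genes -1.09) in voom and -2.55 (all genes -1.13) in limma on log2(FPKM + 0.1). On deposited FPKM or on CPM without TMM scaling the groups overlapped for Per2, which left 3 of 10 (all genes 8.20%). Without the 3 libraries with the most endothelial marker counts, untrained type I libraries 1 and 3 and trained type I library 1, which left 1 untrained library, 6 of 10 were lower without overlap, where 31.5% of all genes were.

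In each of the other comparisons at most 1 clock gene had an unadjusted p under 0.05 or was separated without overlap. With training in type IIb fibres 0 of 10 were called (all genes 0%), 0 had an unadjusted p under 0.05 (all genes 8.21%), and 0 were separated in either direction (all genes 1.92% lower and 2.82% higher). The median there was -0.47 with 7 of 10 below 0, against 0.36 over all genes. It was 0.03 (5 of 10 below 0) without untrained type IIb library 2, -0.10 without trained library 1 and -1.30 without trained library 3. Between fibre types 0 of 10 were called in untrained mice (all genes 0.460%) and 0 of 10 in trained mice (all genes 0.536%). At an unadjusted p under 0.05 there were 0 in untrained (all genes 17.5%) and 1, Dbp, in trained mice (all genes 8.03%). In trained mice 0 of 10 were separated (all genes 3.77% lower and 6.72% higher). In untrained mice 0 were lower (all genes 4.88%) and 1, Clock, was higher (all genes 22.8%). Medians were 0.25 and -0.30 in untrained and trained mice, against 0.85 and 0.21 over all genes. Single libraries and the tool moved both medians. The untrained one was 1.01 without untrained type IIb library 2, 0.06 without untrained type I library 3, and 1.35 with 9 of 10 above 0 in limma on log2(FPKM + 1). The trained one was 0.57 without trained type IIb library 3, -2.30 without trained type I library 3, and 0.45 in limma on log2(FPKM + 0.1).

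No clock gene was called in the interaction (all genes 0%), in training averaged over fibre types (all genes 0%) or in fibre type averaged over training (all genes 1.93%). Unadjusted p-values under 0.05 numbered 0 in the interaction (all genes 8.94%), 1, Dbp, in averaged training (all genes 3.82%) and 0 in averaged fibre type (all genes 16.9%). In averaged training 9 of 10 fitted changes were below 0, with a median of -0.74 against 0.15 over all genes. That median was -0.42 without untrained type IIb library 2, -2.30 without trained type I library 3, and -0.02 with 5 of 10 below 0 without the 3 endothelial-rich libraries. Separated genes numbered 0 of 10 in averaged training (all genes 0.00851% lower and 0% higher) and 0 of 10 in averaged fibre type (all genes 1.06% lower and 2.50% higher). These comparisons share libraries with those above. DESeq2 and limma-voom with quality weights also called 0 of the 10 in all 7 comparisons. With training in type I fibres DESeq2 gave 1 gene (Dbp) at an unadjusted p under 0.05, where 3.85% of all genes passed, and voom gave 3 (Per2, Cry2 and Dbp), where 14.3% passed. Between fibre types in untrained mice voom gave 2 (Per2 and Cry2; all genes 35.0%) and DESeq2 gave 0 (all genes 19.1%). In the interaction voom gave 2 (Per2 and Cry2; all genes 14.7%) and DESeq2 gave 0 (all genes 9.92%).

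**Figure D3:**
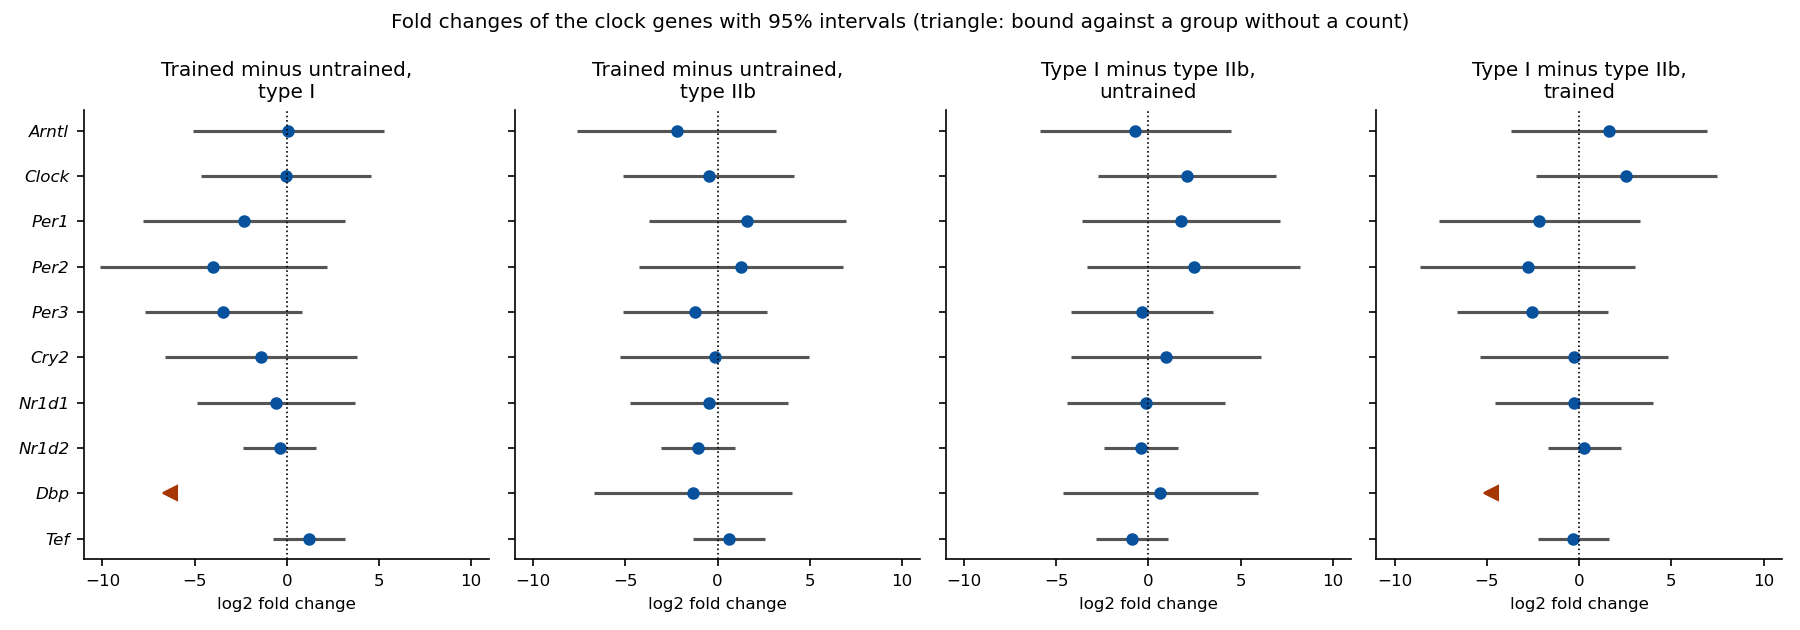
Fitted log2 fold changes of the 10 clock genes (points) with 95% intervals (lines) from edgeR, 3 libraries a group, in the 4 comparisons named above the panels. All intervals drawn include 0. The triangles for Dbp, at 80.9-fold and 27.8-fold lower, are bounds against a group without a count (counting error only). The fitted Dbp intervals in those comparisons, -16.7 to -1.80 and -14.1 to -0.46, excluded 0 and are not drawn.

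Across the 12 libraries the genes differed in how closely they moved together, without a clean split into sets. Over the 45 pairs, Pearson's r of log2 CPM ran from -0.37 to 0.923 with a median of 0.46. The highest values were 0.923 for Per2 and Cry2, 0.870 for Per1 and Per3, 0.866 for Nr1d1 and Nr1d2 and 0.812 for Per3 and Dbp. Among Arntl, Clock, Per1, Per2, Per3, Cry2 and Dbp all 21 pairs were between 0.382 and 0.923. Some pairs reaching outside these genes, such as Nr1d2 with Per3 (0.586), lay within that range. The 9 pairs with Tef were between -0.37 and 0.281. Most libraries with low values here also had few genes: r with log10 of the genes detected was 0.905 for Per1, 0.830 for Per3, 0.827 for Per2, 0.811 for Clock, 0.784 for Cry2, 0.622 for Dbp and 0.584 for Arntl. It was 0.388 for Nr1d2, 0.286 for Nr1d1 and 0.0293 for Tef. Arntl correlated positively with its repressors Nr1d2 (0.465) and Nr1d1 (0.187) and with the period genes. These values describe 12 libraries that share depth and groups, and are given without a test.

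**Figure D4:**
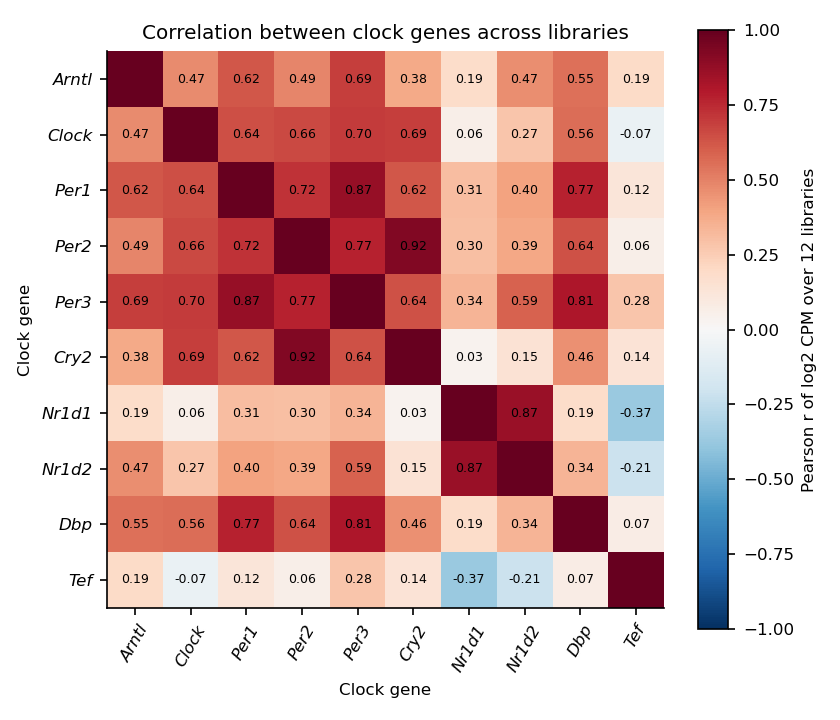
Pearson correlation of log2 CPM between clock genes over the 12 libraries, with the value in each cell and colour from -1 to 1. The block of Arntl, Clock, Per1, Per2, Per3, Cry2 and Dbp is positive throughout (0.382 to 0.923), while pairs with Tef lie between -0.37 and 0.281.

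The genes most alike to Nr1d2 over the 12 libraries were Cand2, a muscle-enriched exchange factor of cullin ligases, at r = 0.966, and Dnajc8 (0.965), Timm10 (0.962), Scnm1 (0.956) and Psme3 (0.954). Those most alike to Dbp were Scpep1 (0.951), Med23 (0.926), Nemp1 (0.925), Spata1 (0.924) and Pde6d (0.920). None of these 10 was a clock gene. They are the top of a ranking over all tested genes with 12 points each, so high values at the top are usual.

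Genes around the clock were read from 4 further lists. Of the other core and secondary loop genes, 10 were tested and 0 were called in any of the 7 comparisons. The highest by mean FPKM were Bhlhe40 at 134.6, Bhlhe41 at 98.1, which encode the repressors DEC1 and DEC2, and the activator Rora at 50.2. Kinases, phosphatases and ubiquitin ligases that act on clock proteins gave 0 called of 18, led by Ppp1cb at 293.3, Csnk2b at 143.8 and Csnk1a1 at 124.6 FPKM. Chromatin factors and coregulators gave 0 called of 15, led by Ncor1, the corepressor of REV-ERB proteins, at 50.1, then Sfpq at 38.6 and Nono at 27.3 FPKM. With training in type I fibres the median log2 fold change was 0.15 for the core list, with 6 of 10 above 0. It was 0.20 for the kinases, -0.21 for the coregulators and 0.17 for the rhythmic output genes described next. The median was -0.28 over all genes and -0.99 for the 10 clock genes. The last value ran from -3.50 to -0.68 when single libraries were left out, and no such range was computed for the lists. The 10 genes and the lists were chosen with earlier results of these data known.

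Among 27 known rhythmic output genes, 0 were called with training and 2 were lower in type I fibres when fibre types were compared over both training states (1.93% of all genes were called there). Tsc22d3, the glucocorticoid-induced leucine zipper gene, had 79.2 ± 29.7 and 65.9 ± 35.8 FPKM (SD, n = 3) in untrained and trained type I, and 202.2 ± 22.0 and 285.7 ± 174 FPKM in untrained and trained type IIb fibres. Its log2 fold change was -2.11 ± 0.47 (SE), with an adjusted p of 0.0228. Mylk4, a myosin light chain kinase gene, had 4.49 ± 4.23 and 15.7 ± 23.0 FPKM in type I against 222.5 ± 116 and 254.5 ± 78.7 FPKM in type IIb fibres. Its log2 fold change, type I minus type IIb, was -5.13 ± 1.12, with an adjusted p of 0.0398. The highest of the list were Tcap at 2277, Pdk4 at 217.7 and Tsc22d3 at 158.3 FPKM over the 12 libraries.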

How the data were processed

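RNA of single myofiber pieces was amplified with SMART-Seq HT and made into Nextera XT libraries without strand or molecular identifiers, per the labels' protocols. The aligner TopHat2 and the build mm10 stand in the record per the submitters' processing notes. For the aligner version, counting program, annotation and filters, the entry is: not given in the sources used here. Values deposited as counts are whole numbers of reads for each gene. The deposited FPKM values were made by the authors and matched count over table length and library total within 0.1% in 94.5% of cases above 0 (largest deviation 0.361%). Table lengths of the 10 genes were shorter than their GENCODE M21 exon unions. One count was worth 0.04 to 0.125 CPM. There were 0 unused sample columns.

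Counts were tested with edgeR 4.0.16 in R 4.3.3 (TMM, robust quasi-likelihood), after edgeR's filter at a minimum count of 10 and total of 15, in 1 fit of the 12 libraries, with p-values adjusted over 11747 genes. SE is the absolute log2 fold change over the square root of F. Pooled folds divide summed counts by summed TMM-scaled library sizes. Correlations used log2 CPM with a prior count of 2. Marker sums use unscaled CPM. Permutation tests used scipy 1.17.1, with 100000 resamples for correlations. The edgeR fit was run on simulated counts, but recovery of known changes was required only at a spread far below that of these data. Alternatives used limma 3.58.1 and DESeq2 1.42.0, other scaling, no filter, other library sets and log2(FPKM + 1 or 0.1).

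The 10 genes and the lists were chosen with earlier results of these data known. Every clock gene was described, other lists by counts with called genes and the 3 highest by FPKM, and the 5 most alike genes for Dbp and for the gene with the highest mean FPKM. The promoter windows shown and the genes given exact tests were chosen after values were seen.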

Additional observations from a re-analysis of the deposited data

How the results depend on the processing

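None of the 10 clock genes was called in 134 further fits over 23 settings, and the lowest adjusted p in any was 0.0797 (limma-voom with quality weights, fibre type in untrained mice). The number of clock genes lower without overlap in trained type I fibres was 3 to 6 over the settings, where 8.20% to 31.5% of all genes were, and 4 to 6 when 1 library was left out, where 12.2% to 28.3% were. The highest count of a single omission, 6, came with the highest share, 28.3%, without trained type I library 3. Directions changed only for Nr1d2 and Tef between fibre types, among the 13 gene results followed. In untrained mice, type I minus type IIb became 0.13 for Nr1d2 in limma on log2(FPKM + 1) and 0.13 on log2(FPKM + 0.1), and 0.14 and 0.16 for Tef. In trained mice Nr1d2 became -0.28 without trained type IIb library 1 and -0.29 without the 2 libraries with the fewest genes, untrained and trained type IIb library 1. Tef became 0.09 and 0.01 without trained type I library 2 or 3. Over all single-library omissions the trained values were -0.28 to 1.19 for Nr1d2 and -1.53 to 0.09 for Tef. The cause was not tested. Leaving out those 2 type IIb libraries together, or the 3 with the most endothelial markers, was chosen after seeing the data.

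Counts of called genes over all genes moved with the tool. DESeq2 called 59, 364, 1031, 346, 390, 227 and 1098 and limma-voom 9, 2, 1898, 144, 3, 3 and 1072 in training in type I and type IIb, fibre type in untrained and trained mice, interaction, averaged training and averaged fibre type, against 0, 0, 54, 63, 0, 0 and 227 by edgeR. With no filter edgeR called 7, 9, 123, 81, 26, 5 and 310. On log2(FPKM + 1) limma called 342, 106 and 600 and on log2(FPKM + 0.1) 312, 105 and 567 in the 3 fibre type comparisons; without the 3 endothelial-rich libraries edgeR called 18, 40 and 62. Leaving out 1 library gave 23 to 48, 33 to 69 and 120 to 210 there, and at most 2 in the others. RLE scaling moved the all-gene median of training in type I by -0.286.

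Same-numbered libraries deviated together in 4 of 18 pairs (r over 0.1, range -0.121 to 0.199). Their mean r was 0.0257, against -0.0122 for pairs with other numbers. The labels do not say whether equal numbers share a mouse, and with the large spread between libraries these values cannot decide it. With the replicate block the median of the 10 with training in type I was -2.60 (all genes -0.79), and 0 clock genes were called in all 7 comparisons, and 42, 41 and 138 of all genes in the 3 fibre type comparisons. Fits of only the groups compared were not run for the interaction and the averages. Without trained type IIb library 3, Dbp was at 0 in both trained groups and gave no value. Depth limits low levels: 1 count was worth 0.04 to 0.125 CPM of the library total.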
